A study of Mus musculus with 51 samples.

Results

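Cytochrome P450 families 1 to 3 were represented by 42 genes among the 14606 genes listed for 6 mouse tissues collected 9 weeks after RYGB (Roux-en-Y gastric bypass) or after sham surgery. Members were chosen by symbol alone: Cyp1a, Cyp1b, Cyp3a, or Cyp2 with a subfamily letter, followed by a number, with the bile acid enzyme Cyp2c70 left out. They fell into 13 subfamilies, comprised 41 coding genes and the pseudogene Cyp2d37-ps, and were drawn from 82 annotated mouse genes whose names fit the rule, 59 of them coding. The tested animals were diet-induced obese male C57Bl6 mice with RYGB, an operation that routes food past most of the stomach and the proximal small bowel, and the controls were sham-operated obese male C57Bl6 mice whose food was restricted to match body weight. After surgery all mice received a liquid elemental diet before high-fat feeding resumed, and all were killed at 10 in the morning after an overnight fast. Duodenum, jejunum and ileum were villi scraped after EDTA treatment, and the other tissues were liver, subcutaneous white adipose tissue (WAT) and gastrocnemius muscle. RYGB and sham libraries numbered 4 and 5 in duodenum, 4 and 5 in jejunum, 2 and 5 in ileum, 5 and 4 in liver, 4 and 5 in WAT, and 4 and 4 in muscle, or 51 libraries from 5 RYGB and 5 sham mice. The labels do not say where along the rerouted bowel a jejunal sample was taken.

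The families hold the heme monooxygenases of the endoplasmic reticulum that oxidise drugs, toxins, steroids and fatty acids, chiefly in liver and in the villus enterocytes of the upper small intestine. They take electrons from the reductase encoded by Por. Many are switched on by ligand sensors: the pregnane X receptor PXR (Nr1i2) and the constitutive androstane receptor CAR (Nr1i3) act on Cyp3a, Cyp2b and Cyp2c genes, and the aryl hydrocarbon receptor (Ahr) acts on Cyp1 genes.

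The deposited unit was CPM, reads scaled to a common library total, and read totals are not given. The CPM of each library's listed genes came to 978879.0 at the least and 993560.1 at the most. In 5 liver libraries (sham 1 and 2, RYGB 2, 3 and 4) the values between 0 and 1 CPM took only 4 or 5 steps from 0.2 CPM. There 1 read was worth about that much, whereas the other livers had steps of 0.1 CPM. Tissue markers matched the labels, with summed villus enterocyte markers between 21892.3 and 88128.9 CPM in ileum, hepatocyte markers between 46288 and 127728 CPM in liver, adipocyte markers between 30472 and 95068 CPM in WAT, and skeletal muscle fibre markers between 96838.7 and 193283 CPM in muscle. Several libraries stood apart. Ileum sham 4 had 21892.3 CPM of villus enterocyte markers and 4860.6 CPM of crypt, stem and proliferation markers, against 76173.4 to 88128.9 and 51.2 to 149.9 CPM in the other 4 sham ileum libraries. Pancreatic acinar transcripts made up 1.54% of duodenum RYGB 2 and 6.05, 8.91 and 6.12% of duodenum sham 1 to 3, with at most 0.084% in the other 5 duodenum libraries. The muscle RYGB libraries carry a sham entry in the label for the sample source, whereas their titles and their surgery entries say RYGB.

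**Figure D1:**
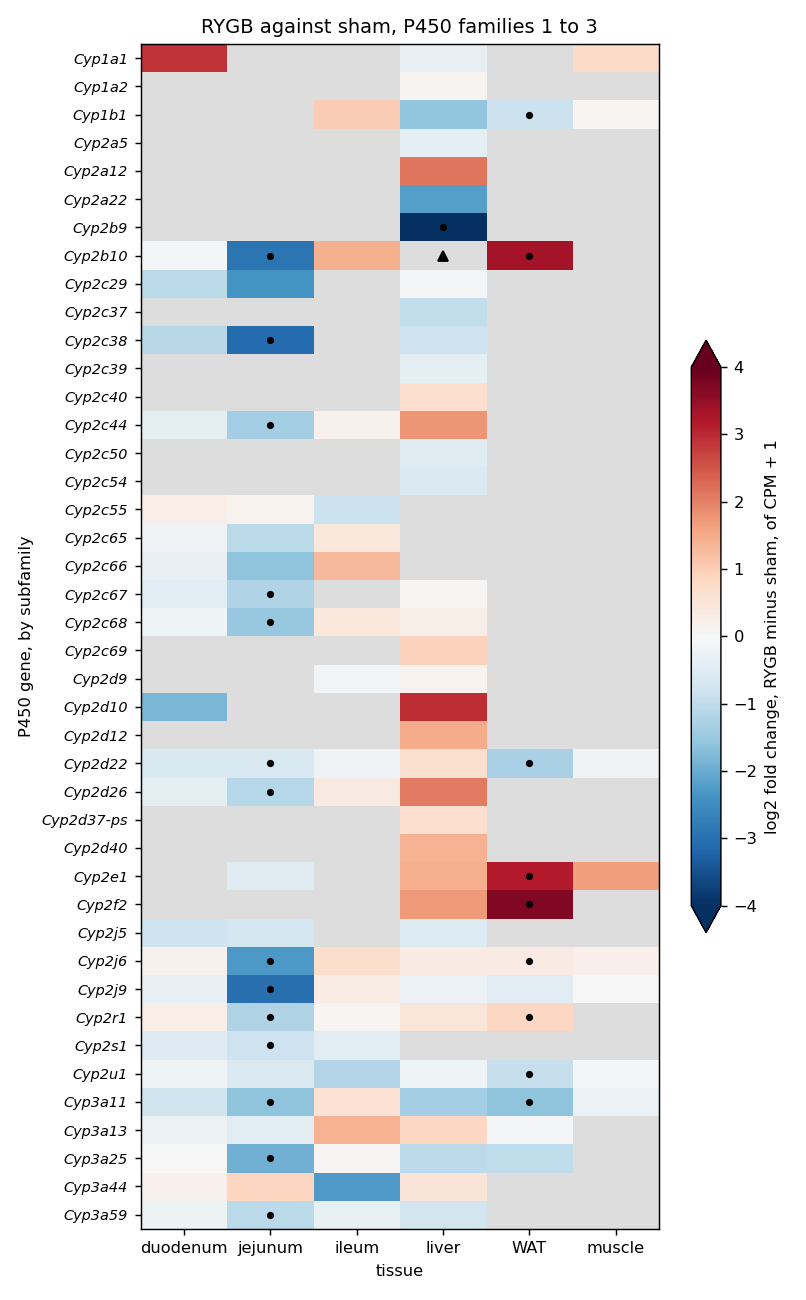
Log2 fold change (RYGB minus sham, of CPM + 1) of each of the 42 P450 genes (rows, by subfamily) in 6 tissues (columns), with red for higher and blue for lower in RYGB, grey where a gene was not listed, a dot where the adjusted p was below 0.05 and a triangle for hepatic Cyp2b10, which passed but has no fold because it was listed at 0 in every sham liver. Jejunum holds 14 dots, all blue, and WAT holds 9 in both colours.

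Liver listed 38 of the 42 genes, duodenum 24, jejunum 23, ileum 20, WAT 12 and muscle 8. Cyp2d22, Cyp2j6, Cyp2j9, Cyp2u1 and Cyp3a11 were listed in all 6 tissues, and 14 genes were listed in a single tissue. A tissue table listed a gene only when as many libraries as its smaller group reached 1 CPM, so an unlisted gene may still have been transcribed at a low level. A gene listed through the libraries of 1 group alone had to be high there, and such members are pointed out below where they passed a threshold. Per kilobase of annotated exon, the level of Cyp3a13, a gut-rich drug and steroid oxidase, led in all 3 gut segments, with 1329 CPM per kb in duodenum, 1084 in jejunum and 464 in ileum. Cyp2e1, which oxidises ethanol, acetone and small solvents, led in the other tissues, with 2697 CPM per kb in liver, 1477 in WAT and 7.29 in muscle. Among sham mice, mean Cyp3a11 levels were 2167 CPM in duodenum, 1509 CPM in jejunum and 114 CPM in ileum, and mean Cyp2u1 levels ran the other way at 7.74, 22.3 and 50.8 CPM. Cyp2b10 peaked in the middle of the sham gut, with 268 CPM in duodenum, 634 CPM in jejunum and 15.1 CPM in ileum. These levels come from tables filtered separately, and the segment order was not tested.

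Throughout, ± after a mean is the SD over the group's libraries and ± after a fold change is its SE. The jejunum comparison set villi of RYGB mice against villi of weight-matched sham mice. Because sham surgery went together with restricted food, every contrast of RYGB with sham, in any tissue, mixes operation and feeding. How much each contributed was not tested, and RYGB effect below means the mixed difference. Of 23 P450 genes, 14 fell in RYGB jejunum and 0 rose (limma, adjusted p below 0.05 over 11021 genes). Over all genes 6.29% fell and 6.32% rose, 12.6% in all. The median log2 fold change of the 23 members was -1.19, against 0.08 over all genes, and 14 of the 23 had every RYGB library below every sham library, as did 6.75% of all genes. Either group alone would have listed 16 of the 23 members, of which 10 fell. The other 4 that fell, Cyp2c38, Cyp2c67, Cyp2r1 and Cyp3a59, were listed through the sham libraries alone, so the filter chose them by the group in which they were high. Summed over the 23 members, RYGB jejunum held 3855.6 to 6917.6 CPM and sham jejunum 8638.7 to 12230.3 CPM, without overlap. In scraped villi, fewer enterocytes of a given maturity and less RNA per cell cannot be told apart. Villus enterocyte markers summed to 63868 to 76050.8 CPM in RYGB and 57211.1 to 87198.3 CPM in sham jejunum, with Krt20 higher and Anpep and Lct lower among 12 measured. Crypt, stem and proliferation markers summed to 74.8 to 302.6 CPM in RYGB and 44.6 to 82.8 CPM in sham jejunum, and 1 of 10 rose (Axin2). Paneth, goblet and enteroendocrine markers summed to 2236 to 6156 CPM in RYGB and 1732 to 4364 CPM in sham jejunum, with 4 of 11 higher. The rank correlation over genes of a library's level, relative to the tissue average, with exon length was -0.25, 0.11, -0.18 and -0.04 in RYGB and 0.13, 0.11, 0.08, 0.25 and 0.05 in sham jejunum, and with that trend removed 15 members were lower. Over all 11021 genes 1546 then passed in either direction, against 1390 before. The part of the cell markers in the P450 result was not tested.

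**Figure D2:**
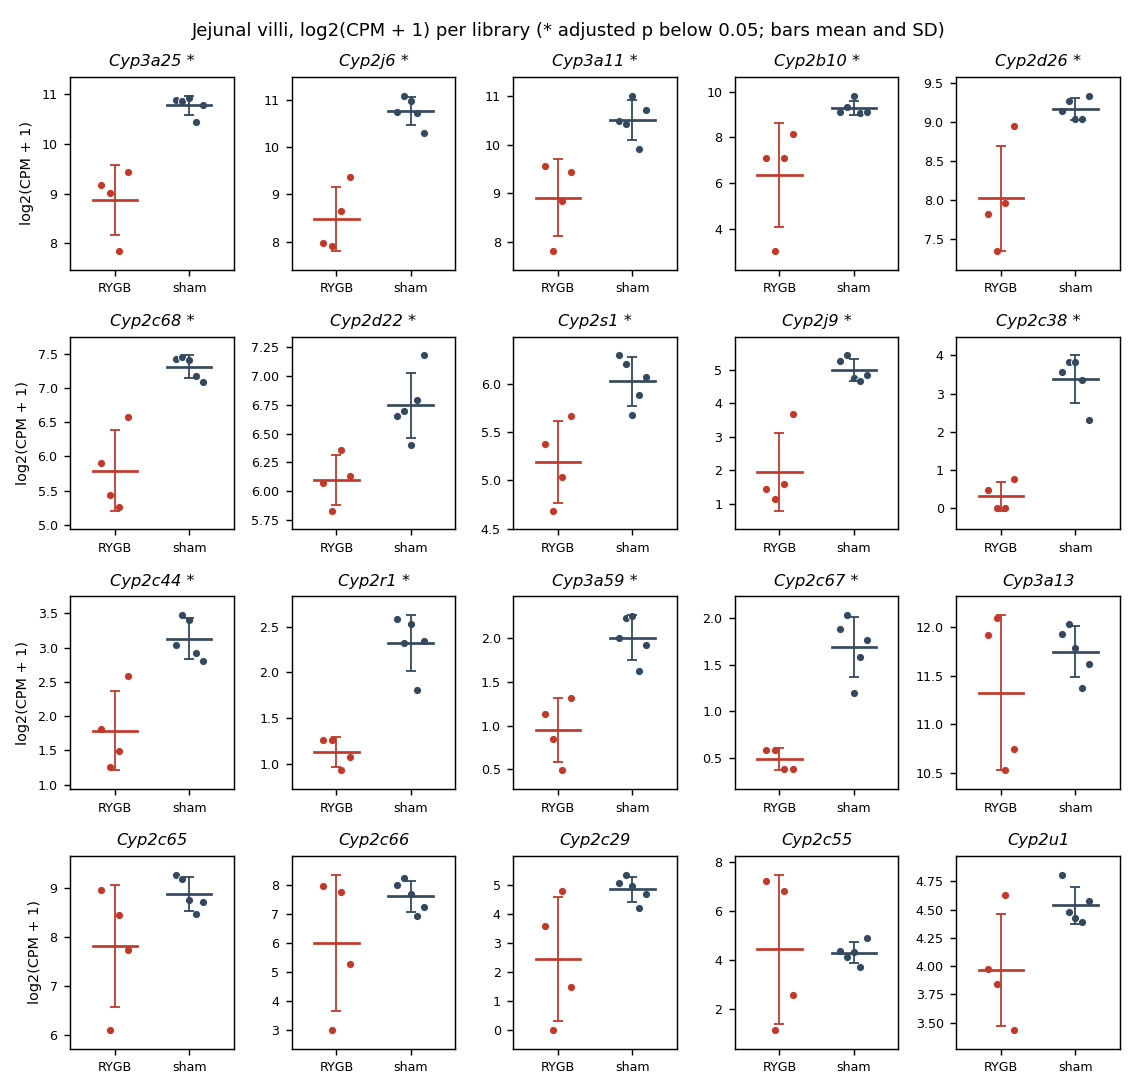
Log2(CPM + 1) in each jejunum library, RYGB (4 mice, red) left of sham (5 mice, dark), with mean and SD, for the 14 P450 genes that fell (asterisks, ordered by sham level) and 6 others. In the 14 starred genes no RYGB point reaches the lowest sham point, whereas Cyp3a13, Cyp2c65, Cyp2c66, Cyp2c29, Cyp2c55 and Cyp2u1 overlap.

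The Cyp3a subfamily, the main drug and steroid oxidases of the gut wall, had 3 of 5 genes lower in RYGB jejunum. Cyp3a25 was at 578.4, 513.8, 228.1 and 692.0 CPM in the 4 RYGB libraries, against 1891.9, 1857.9, 1930.5, 1397.1 and 1753.4 CPM in the 5 sham libraries. Cyp3a11, the principal mouse CYP3A drug oxidase and a PXR and CAR target, was at 752.5, 223.5, 458.3 and 697.8 CPM in RYGB and 1437.4, 1385.3, 2067.0, 964.5 and 1689.2 CPM in sham libraries. For both genes the highest RYGB mouse lay below the lowest sham mouse. Their log2 fold changes were -1.91 ± 0.29 (SE, adjusted p 0.0054) and -1.601 ± 0.35 (adjusted p 0.019). Cyp3a59, which shares 26.8% of its 50-base words with Cyp3a25 and may take some of its reads, averaged 0.975 ± 0.479 CPM in RYGB and 3.08 ± 0.698 CPM in sham jejunum (SD), a log2 fold change of -1.06 (adjusted p 0.020). Cyp3a13, the most abundant member, did not follow: it was at 3865.6, 4373.1, 1477.8 and 1722.9 CPM in RYGB and 3888.9, 4183.4, 3520.1, 2659.9 and 3137.8 CPM in sham jejunum. Its RYGB libraries 1 and 2 sat in the upper part of the sham range or above it, and RYGB 3 and 4 below it, with a log2 fold change of -0.42 ± 0.33 (adjusted p 0.41). Cyp3a44, known from mouse liver as female-predominant, stayed under 20 CPM and overlapped between groups.

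The 250 bases before the RefSeq start of 6 jejunal members are shown so that genes that fell can be read beside Cyp3a13, which did not pass the test. Capitals mark matches on either strand to the motifs searched. AGGTCA is a half-site read by PXR, CAR and other nuclear receptors, and the related half-site AGTTCA was searched as well. CAAAG is the centre of the site bound by the HNF4 proteins. GCGTG is the core that the aryl hydrocarbon receptor reads. AGATAA is a core of sites for the GATA factors. The sequences, 5′ to 3′ on the gene's strand from RefSeq on GRCm38.p6, lie at chr5:145879855-145880104 (minus strand) for Cyp3a11, chr5:146009619-146009868 (minus) for Cyp3a25, chr5:146079008-146079257 (plus) for Cyp3a59, chr5:137921620-137921869 (minus) for Cyp3a13, chr7:25897408-25897657 (plus) for Cyp2b10 and chr4:96553652-96553901 (minus) for Cyp2j6.
Cyp3a11: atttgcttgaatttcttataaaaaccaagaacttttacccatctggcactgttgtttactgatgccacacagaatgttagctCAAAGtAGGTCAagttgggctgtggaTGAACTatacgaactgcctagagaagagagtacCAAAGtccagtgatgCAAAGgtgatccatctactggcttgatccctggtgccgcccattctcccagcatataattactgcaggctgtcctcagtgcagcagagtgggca
Cyp3a25: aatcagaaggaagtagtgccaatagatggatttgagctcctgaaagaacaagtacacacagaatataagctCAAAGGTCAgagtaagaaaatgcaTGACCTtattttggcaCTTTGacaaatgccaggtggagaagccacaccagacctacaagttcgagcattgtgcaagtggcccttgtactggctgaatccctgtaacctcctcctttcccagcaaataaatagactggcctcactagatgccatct
Cyp3a59: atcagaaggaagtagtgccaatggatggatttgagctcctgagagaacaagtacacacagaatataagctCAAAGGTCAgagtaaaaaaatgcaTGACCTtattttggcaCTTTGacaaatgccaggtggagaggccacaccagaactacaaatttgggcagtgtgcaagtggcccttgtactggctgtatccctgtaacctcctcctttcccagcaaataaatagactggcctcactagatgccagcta
Cyp3a13: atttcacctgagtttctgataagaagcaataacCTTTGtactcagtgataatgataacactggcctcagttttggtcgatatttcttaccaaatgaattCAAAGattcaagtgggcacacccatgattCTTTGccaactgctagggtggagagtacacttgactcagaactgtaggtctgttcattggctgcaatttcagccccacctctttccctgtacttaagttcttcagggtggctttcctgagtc
Cyp2b10: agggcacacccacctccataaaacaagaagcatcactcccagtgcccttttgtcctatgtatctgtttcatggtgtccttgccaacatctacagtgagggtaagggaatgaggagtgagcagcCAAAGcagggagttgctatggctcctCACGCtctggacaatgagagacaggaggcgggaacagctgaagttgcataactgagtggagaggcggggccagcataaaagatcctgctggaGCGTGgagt
Cyp2j6: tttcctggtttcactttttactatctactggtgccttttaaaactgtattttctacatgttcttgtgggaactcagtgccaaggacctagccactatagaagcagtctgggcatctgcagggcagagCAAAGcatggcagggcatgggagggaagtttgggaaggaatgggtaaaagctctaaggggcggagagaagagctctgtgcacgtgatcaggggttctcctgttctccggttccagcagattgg
In Cyp3a25 an AGGTCA on the gene's strand overlapped a CAAAG, and a second one lay on the other strand. Cyp3a59 carried the same arrangement shifted by a base. Against a neighbouring RefSeq start of Cyp3a25, not shown, the positions were identical. Cyp3a11 held an AGGTCA at position -162 and an AGTTCA on the other strand at -142, and Cyp3a13 held neither half-site but 3 CAAAG matches. Cyp2j6 held a single CAAAG at -123, and Cyp2b10 a CAAAG at -127 with GCGTG at -101 and -9. Of the 12 lowered genes with a RefSeq promoter, 11 held CAAAG (91.7%), as did 7 of the 8 other jejunal members with a promoter (87.5%) and 52.2% of 27025 genes. AGGTCA occurred in 3 of 12, 3 of 8 and 15.8% of all, AGTTCA in 1 of 12, 0 of 8 and 13.4%, GCGTG in 3 of 12, 0 of 8 and 30.9%, and AGATAA in 2 of 12, 2 of 8 and 11.4%. TTATGTAA, the site of the clock-linked factors Dbp, Tef and Hlf, was in none of the 36 member promoters and in 1.0% of all. Base composition was not matched, and a match is only a match of letters.

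The Cyp2j subfamily, which oxidises arachidonic and linoleic acid, had 2 of 3 genes lower in RYGB jejunum, and Cyp2j6 had the largest loss among members above 1000 CPM in sham jejunum. It was at 250.2, 240.3, 402.1 and 655.3 CPM in RYGB, against 1700.3, 2163.0, 2003.7, 1680.7 and 1256.8 CPM in sham libraries. The groups did not overlap, with means of 387 ± 194 CPM in RYGB and 1761 ± 348 CPM in sham jejunum (SD). Its log2 fold change was -2.28 ± 0.29 (adjusted p 0.0031). Cyp2j9 was at 1.7, 1.2, 2.0 and 11.9 CPM in RYGB, against 37.0, 42.0, 26.0, 24.5 and 27.5 CPM in sham libraries, and changed by -3.03 ± 0.46 on the log2 scale (adjusted p 0.0065). RYGB 4 was the highest RYGB library for both genes. Cyp2j5 averaged 0.425 ± 0.525 CPM in RYGB and 1.24 ± 0.41 CPM in sham jejunum and did not pass (adjusted p 0.11).

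Among Cyp2c genes, 4 of 8 fell in RYGB jejunum. Cyp2c38, an arachidonic acid epoxygenase, was at 0.4, 0.0, 0.0 and 0.7 CPM in RYGB, against 10.9, 13.2, 13.1, 9.2 and 4.0 CPM in sham libraries. It was near or at 0 in every RYGB library, and its log2 fold change of -3.07 ± 0.33 (adjusted p 0.0027) understates the difference because 1 CPM was added. Its listing rests on the sham libraries alone. Cyp2c68 averaged 58.2 ± 25.9 CPM in RYGB and 158.5 ± 17.7 CPM in sham jejunum (SD), a log2 fold change of -1.52 ± 0.24 (adjusted p 0.0067). Cyp2c44, listed as Cyp2c23 in GENCODE and an epoxygenase, and Cyp2c67 fell by 1.34 and 1.21 on the log2 scale from sham means below 8 CPM (adjusted p 0.018 and 0.010). Cyp2c67 and Cyp2c68 share 52.8 and 43.3% of their 50-base words with other genes, Cyp2c40 most, so reads may be split among them. The remaining Cyp2c genes varied widely between RYGB mice. Cyp2c29, a CAR target and epoxygenase, was at 11.1, 0.0, 26.4 and 1.8 CPM in RYGB and 32.3, 39.8, 30.2, 17.6 and 24.8 CPM in sham libraries (log2 fold change -2.39 ± 0.80, adjusted p 0.076). Like Cyp2c38, Cyp2c29 was listed through the sham libraries alone. Cyp2c55, inducible through PXR and CAR, was at 149.3, 1.2, 110.7 and 4.9 CPM in RYGB and 19.9, 16.5, 19.3, 12.3 and 29.0 CPM in sham libraries. RYGB 1 and RYGB 3 were above, and RYGB 2 and RYGB 4 below, every sham library for Cyp2c55. Cyp2c65 and Cyp2c66, intestinal arachidonate oxidases that share about 20% of their words, were also highest in RYGB 1 and 3 and lowest in RYGB 2 and did not pass (adjusted p 0.17 and 0.25).

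Cyp2b10, the standard marker of CAR activation, was at 137.7, 7.2, 137.0 and 283.1 CPM in RYGB, against 545.9, 636.3, 903.5, 530.8 and 554.0 CPM in sham jejunum. Every RYGB library was below every sham library, and RYGB 2 was far below the rest, giving a log2 fold change of -2.93 ± 0.84 (adjusted p 0.046). Its call was lost in 8 of 14 alternatives, with adjusted p up to 0.0968. Cyp2d26 averaged 282 ± 146 CPM in RYGB and 573.2 ± 55.0 CPM in sham jejunum and Cyp2d22, often set beside human CYP2D6, averaged 68.0 ± 10.5 and 108.0 ± 22.3 CPM, with log2 fold changes of -1.14 and -0.65 (adjusted p 0.023 and 0.038). Cyp2s1, a carcinogen and retinoid oxidase of epithelia, averaged 36.7 ± 10.9 CPM in RYGB and 64.7 ± 10.98 CPM in sham jejunum (log2 fold change -0.83, adjusted p 0.031). The calls of Cyp2d22, Cyp2s1 and Cyp2d26 were lost in 8, 7 and 6 of 14 alternatives, with adjusted p up to 0.147, 0.090 and 0.072. Cyp2r1, the vitamin D hydroxylase, averaged 1.2 ± 0.245 CPM in RYGB and 4.08 ± 0.983 CPM in sham jejunum (log2 fold change -1.19, adjusted p 0.011). Cyp2u1, a fatty acid hydroxylase, and Cyp2e1 did not pass (adjusted p 0.12 and 0.73), and Cyp2e1 was listed through the sham libraries alone. Leaving out sham 1 or sham 2 cut the count of lowered genes to 9 and 8, and Cyp3a25, Cyp2j6, Cyp2j9, Cyp2c38 and Cyp2c68 passed under every alternative run. Over all 11021 genes the same steps cut the calls from 1390 to 543 and 484.

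CAR itself fell in RYGB jejunum. Nr1i3 averaged 69.8 ± 7.75 CPM (58.3 to 74.9) in RYGB and 160 ± 24.2 CPM (131.1 to 187.5) in sham libraries, a log2 fold change of -1.18 (adjusted p 0.0031). The other 5 measured sensors and partners did not pass: Nr1i2 averaged 137 ± 30.7 CPM in RYGB and 119.2 ± 19.4 CPM in sham (adjusted p 0.56), and Ahr 29.4 ± 10.7 and 37.8 ± 6.37 CPM (adjusted p 0.28). Of 25 other measured transcription factors of gut and liver P450 genes, 7 fell and 1 rose. Hnf4a, a master regulator of these genes, rose to 685.1 ± 125 CPM in RYGB, against 445.7 ± 69.1 CPM in sham jejunum (log2 fold change 0.62, adjusted p 0.045), while its paralog Hnf4g fell (log2 fold change -1.29, adjusted p 0.038). Dbp, Tef and Hlf, the PAR-bZIP factors that carry circadian time to detoxification genes, fell by 3.53, 1.91 and 2.28 on the log2 scale (adjusted p 0.0075, 0.014 and 0.041), and Nr3c1, Ppara and Gata6 fell by 0.87, 1.45 and 0.67. Por did not pass (528 ± 258 CPM in RYGB and 369 ± 46.0 CPM in sham, adjusted p 0.50), nor did any of the 8 redox partners. In heme synthesis Alas1, its rate-limiting enzyme, averaged 236 ± 81.3 CPM in RYGB and 106 ± 9.94 CPM in sham and rose (log2 fold change 1.09, adjusted p 0.016), Alad rose and Ppox fell among 11 measured. Of 23 other phase I enzymes 10 fell and 0 rose. Among them the alcohol dehydrogenase Adh1 averaged 342 ± 162 CPM in RYGB and 1366 ± 390 CPM in sham and the deacetylase Aadac 46.3 ± 33.4 and 297 ± 115 CPM, and the carboxylesterases Ces1d, Ces1e, Ces1f, Ces1g and Ces3a fell too, as did Aldh1a1, Maob and Fmo4. Of 6 drug transporters, Abcc3 rose (log2 fold change 1.56, adjusted p 0.049).

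In duodenum none of 24 P450 genes passed, where 0.348% of 10930 genes did (14 genes or 0.128% higher and 24 or 0.22% lower, with 13 and 37 under median-of-ratios scaling). At an unadjusted p below 0.05, 1 member was higher and 7 were lower, against 17.6 and 5.11% of all genes. Among those 7, Cyp2d10, Cyp2j5 and Cyp2c38 were listed through the sham libraries alone, so the filter chose them by the group in which they were high. Cyp2d10, a liver steroid hydroxylase that shares 35.8% of its words with other genes, came closest. It was at 0.2, 0.3, 0.0 and 0.1 CPM in RYGB, against 2.2, 1.6, 9.1, 2.3 and 2.8 CPM in sham duodenum (log2 fold change -1.81 ± 0.35, adjusted p 0.0535), and it was the only member without overlap, RYGB below, a pattern of 1.69% of all genes. The highest Cyp2d10 value was in a pancreas-rich library, and with the 4 libraries above 1% pancreatic transcripts left out, 3 RYGB and 2 sham libraries remained, its log2 fold change was -1.69 and 0 of all genes passed, so that no member could stand out there. Duodenal crypt, stem and proliferation markers summed to 82.7 to 726.7 CPM in RYGB and 34 to 70.6 CPM in sham libraries, without overlap, and their part in the P450 values was not tested. Cyp3a11 was at 899.7, 1531.4, 1002.9 and 1464.2 CPM in RYGB, against 2736.4, 2331.7, 2291.9, 2321.0 and 1154.9 CPM in sham duodenum. Sham 5 alone reached into the RYGB range, and the log2 fold change was -0.80 ± 0.28 (adjusted p 0.12). Without sham 5, 3 members passed as lower, Cyp2d10, Cyp3a11 and Cyp2j5, and without RYGB 3 Cyp2d10 did. Over all 10930 genes, calls in either direction rose from 38 to 440 without sham 5 and to 982 without RYGB 3. Cyp1a1, the classical AHR target, was at 31.5, 429.3, 63.2 and 46.1 CPM in RYGB and 13.4, 1.7, 18.6, 2.1 and 62.9 CPM in sham duodenum. Its mean of 142.5 ± 192 CPM in RYGB rests largely on RYGB 2, and it overlapped the sham group (log2 fold change 2.89 ± 1.11, adjusted p 0.18). Cyp3a13, Cyp3a25, Cyp2j6 and Cyp2b10 had log2 fold changes between -0.21 and 0.16. Of 21 other phase I enzymes only the epoxide hydrolase Ephx1 passed, at 4.78 ± 2.44 CPM in RYGB and 19.6 ± 5.82 CPM in sham (log2 fold change -1.86, adjusted p 0.040).

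The difference between the segments was tested in the 3 RYGB and 5 sham mice with both libraries, with animal as a block. The RYGB effect was more negative in jejunum than in duodenum for 6 of 22 members and more positive for 0. Over 10663 genes the difference passed in 2.4%, more negative in 1.88% and more positive in 0.525%. Cyp2j6 in RYGB mice was lower in jejunum than in duodenum by 0.78 on average on the log2 scale (range of differences -1.11 to -0.42), whereas in sham mice jejunum exceeded duodenum by 1.52 (1.2 to 1.88). The difference of differences was -2.30 ± 0.28 (adjusted p 0.0050). It was -2.62 ± 0.42 for Cyp2j9 (adjusted p 0.011), -2.0 ± 0.43 for Cyp3a25 (adjusted p 0.034), -2.15 ± 0.48 for Cyp2c38 (adjusted p 0.038), -3.11 ± 0.67 for Cyp2b10 (adjusted p 0.040) and -1.30 ± 0.30 for Cyp2c68 (adjusted p 0.045). In all 6 genes the within-animal ranges of RYGB and sham mice did not overlap, nor did they in Cyp2c44 and Cyp3a59, which did not pass. The share of all genes without such overlap was not counted, so the lack of overlap only describes these genes and adds nothing to the test. Cyp2c38 was listed through the sham libraries alone in both segments. Cyp3a11 did not pass in this contrast, with -0.89 ± 0.41 (adjusted p 0.24). Against liver, in 4 RYGB and 4 sham mice, Cyp2j6 alone of 19 members had a lower RYGB effect in jejunum (0.0449% of 8918 genes, with 0.0224% higher and 0.0673% in all), by 2.81 ± 0.38 on the log2 scale (adjusted p 0.018). Leaving out single mice left 2 to 6 genes in the duodenum contrast, always with Cyp2j6 and Cyp2j9. It fell to 2 without the mouse of jejunum sham 2, sham 3 or RYGB 2 and to 3 without that of jejunum sham 1 or sham 5. The liver contrast had 0 without the mouse of jejunum sham 4, sham 5 or RYGB 2 and 5 without that of jejunum RYGB 4.

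**Figure D3:**
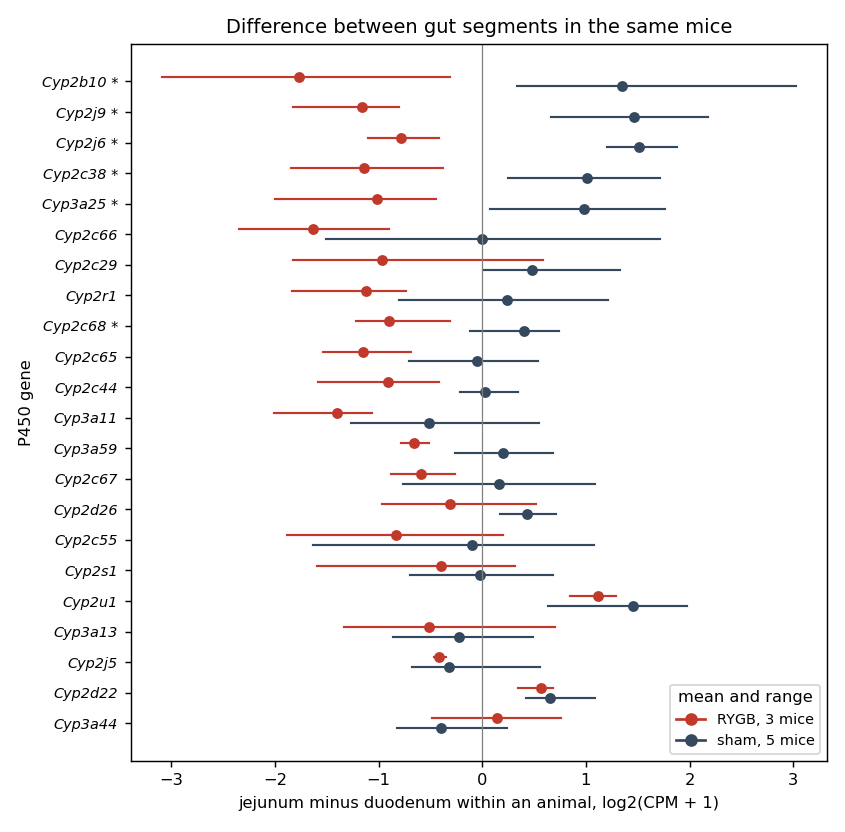
Difference between jejunum and duodenum within a mouse, in log2(CPM + 1), for 22 P450 genes, with mean and range in 3 RYGB mice (red) above 5 sham mice (dark) and an asterisk where the groups differ at an adjusted p below 0.05. For Cyp2j6 the RYGB mean is -0.78 and the sham mean 1.52, on opposite sides of 0.

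In ileum, with 2 RYGB libraries, 0 of 20 P450 genes passed, as did 0% of 12041 genes, and at an unadjusted p below 0.05 no member was higher and 1 was lower (1.69 and 1.95% of all genes). Cyp3a13 was at 2311.5 and 2210.0 CPM in RYGB, against 1119.5, 1070.0, 1357.6, 233.3 and 1302.6 CPM in sham ileum. Cyp2j6 was at 435.6 and 464.7 CPM in RYGB, against 385.0, 290.1, 294.8, 162.5 and 290.6 CPM in sham ileum. Both were above every sham library, as 3.15% of genes were, and sham 4, poor in enterocyte markers, gave the lowest value of each. Their log2 fold changes were 1.38 ± 0.66 and 0.71 ± 0.33 (limma, adjusted p 0.9999 each), and without sham 4 they were 0.91 and 0.52 (adjusted p 0.073 and 0.22). Cyp3a44 was at 0.1 and 0.7 CPM in RYGB, against 12, 7.6, 8.6, 0.5 and 6.9 CPM in sham ileum, where sham 4 alone reached the RYGB range. It was the member with the smallest unadjusted p, and without sham 4 it passed, with a log2 fold change of -2.81 (adjusted p 0.028). In that setting 46 of 12041 genes passed. Cyp3a44 was listed through the sham libraries alone, so the filter chose it by the group in which it was high. Cyp2b10 was at 11.8 and 85.6 CPM in RYGB, against 8.3, 5.2, 16.7, 6.0 and 39.5 CPM in sham ileum, with overlap.

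Liver held the widest set, and 2 of its 38 P450 genes passed, 1 in each direction (4.63% of 10285 genes, 2.03% higher and 2.6% lower). Cyp2b9, known as female-predominant in mouse liver, was at 6.5, 0.0, 3.3, 0.2 and 0.3 CPM in RYGB, against 258.4, 91.1, 106.1 and 12 CPM in sham livers. All 5 RYGB livers were below all 4 sham livers, with a log2 fold change of -5.12 ± 0.83 (adjusted p 0.024). Cyp2b10 was at 1.5, 5.1, 2.7, 7.0 and 1.3 CPM in RYGB and listed at 0 in all 4 sham livers (adjusted p 0.0355), so no fold is given. Cyp2b10 was listed through the RYGB livers alone and Cyp2b9 through the sham livers alone, so the filter chose both by the group in which they were high. Only Cyp2b10 lay wholly above the sham livers, as did 4.34% of genes, and Cyp2b9, Cyp1b1 and Cyp3a25 lay wholly below, as did 8.01%. Cyp2b9 shares 10.8% of its words with Cyp2b13 and Cyp2b10 6.9%. The other female-predominant genes did not follow Cyp2b9: Cyp3a44, Cyp2c40 and Cyp2c69 had log2 fold changes of 0.51, 0.68 and 0.92, none of them past the test. Without RYGB 1 these were 0.25, 0.28 and 0.21, and Cyp2c69 shares 46.5% of its words with Cyp2c40.

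**Figure D4:**
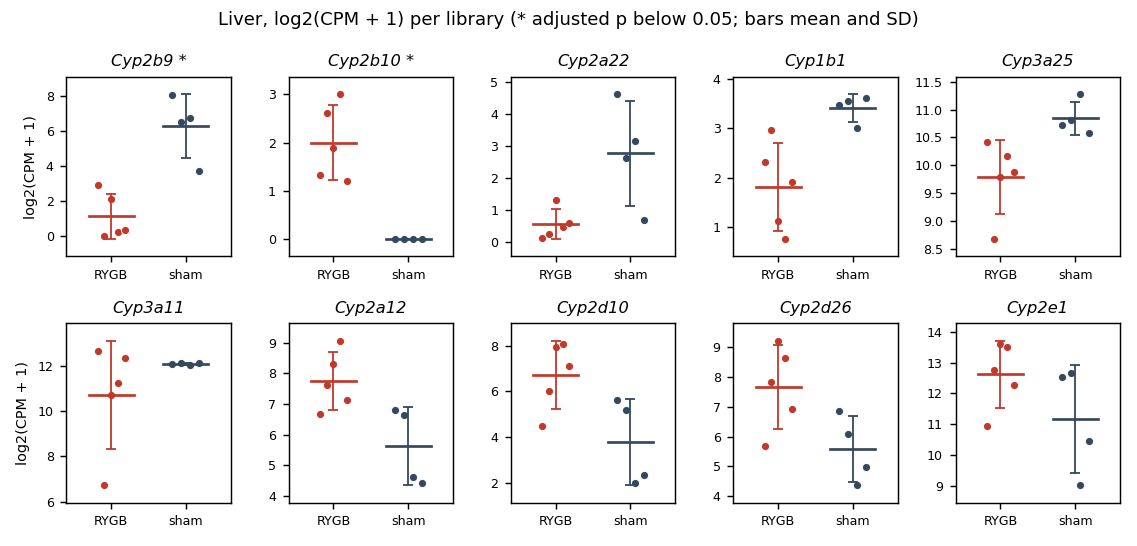
Log2(CPM + 1) in each liver library, RYGB (5 mice, red) left of sham (4 mice, dark), with mean and SD, for the 2 P450 genes that passed (asterisks) and 8 others. Cyp2b9 and Cyp2b10 separate in opposite directions, and the 5 RYGB values of Cyp3a11 run from 104.1 to 6514.8 CPM while the 4 sham values lie between 4211.0 and 4536.2 CPM.

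Hepatic Cyp3a11 did not pass but spread widely after RYGB, at 6514.8, 104.1, 1666.1, 2445.7 and 5194.6 CPM in RYGB, against 4421.5, 4536.2, 4211.0 and 4497.4 CPM in sham livers (log2 fold change -1.37 ± 0.94, adjusted p 0.30). Cyp3a25 was at 1374.1, 409.3, 887.4, 1156.3 and 944.6 CPM in RYGB, against 1695.4, 1787.4, 2468.3 and 1523.0 CPM in sham livers, below in every case (log2 fold change -1.05 ± 0.37, adjusted p 0.084). RYGB 2 was the lowest liver for both. Cyp1b1, an AHR target that oxidises estradiol, averaged 3.10 ± 2.45 CPM in RYGB and 9.72 ± 1.88 CPM in sham livers without overlap (adjusted p 0.062). All 7 Cyp2d genes had a fold change above 0 with none past the test, as had 6212 of all 10285 genes, and under median-of-ratios scaling Cyp2d9 was at -0.08. Cyp2d10 and Cyp2d26 came closest at 2.94 ± 0.88 and 2.08 ± 0.68 on the log2 scale (adjusted p 0.061 and 0.072). Cyp2a12, a testosterone hydroxylase, and Cyp2a22, which share about 20% of their words, leaned in opposite directions, at 256.4 ± 174 and 0.540 ± 0.559 CPM in RYGB and 63.2 ± 47.9 and 9.25 ± 9.84 CPM in sham livers (log2 fold changes 2.14 and -2.21, adjusted p 0.055 and 0.057). The drug oxidases Cyp2e1, Cyp2c29, Cyp2c50, Cyp1a2 and Cyp2a5 overlapped widely, with adjusted p between 0.19 and 0.96. In Cyp2e1 the livers with steps from 0.2 CPM were the higher ones within each group. They were at 6899.6, 12448.5 and 11777.8 CPM in RYGB and 5969.6 and 6441.3 CPM in sham. The other livers were at 1965.8 and 4975.5 CPM in RYGB and 515.1 and 1390.2 CPM in sham. Cyp2a12 and Cyp2d26 split likewise, and Cyp2c29, Cyp2c50, Cyp1a2 and Cyp2a5 did not. The part of read depth was not tested.

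The hepatic calls sat close to the threshold. Leaving out single livers moved the members counted higher to between 0 and 5 and lower to between 0 and 4, with 0 in both directions without sham 2, sham 3, RYGB 2 or RYGB 4. The higher count was 4 without sham 1, 2 without RYGB 5 and 0 without sham 4 or RYGB 3. Without RYGB 1, 5 were higher and 4 lower, and median-of-ratios scaling, which lowered the median of all genes by 0.18 on the log2 scale, gave 3 and 3. Calls over all 10285 genes moved as well, from 476 as reported. They came to 12, 3, 9 and 8 without sham 2, sham 3, RYGB 2 and RYGB 4, respectively. Without sham 4 they were 6, without RYGB 3 14, without sham 1 1317 and without RYGB 5 1046. Without RYGB 1 they were 2253, and under the scaling 992. Hepatocyte markers summed to 55677 to 127728 CPM in RYGB and 46288 to 61830 CPM in sham livers, with 4 of 10 higher, among them the fibrinogen genes Fga and Fgb. Macrophage and leukocyte markers summed to 75.8 to 1056.9 CPM in RYGB and 31.6 to 143.9 CPM in sham livers, with 3 of 5 higher. The rank correlation of a gene's level with its exon length, over genes and relative to the tissue average, was between -0.21 and 0.04 in RYGB and between 0.11 and 0.20 in sham livers. The part of these in the calls was not tested. Ahr fell in RYGB liver (102 ± 25.7 CPM, against 232 ± 55.1 CPM in sham, log2 fold change -1.19, adjusted p 0.044), while Nr1i2 and Nr1i3 had log2 fold changes of 1.64 and 0.90 that did not pass (adjusted p 0.10 and 0.41), nor did Hnf4a (adjusted p 0.062). Hlf and Cpox fell, Urod and the efflux pump Abcb1b rose, and 0 of 25 other phase I enzymes passed.

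WAT had 9 of 12 P450 genes past the test, 5 higher and 4 lower, in a tissue where 40.6% of 12690 genes passed, 14.3% higher and 26.3% lower. Over all genes median-of-ratios scaling changed the split to 2681 higher and 2593 lower, against 1812 and 3341 from CPM, which raised the median of all genes by 0.17. Of the 12 members, 5 lay wholly above and 2 wholly below the sham libraries, as did 11.7 and 22% of all genes. Cyp2f2, known for naphthalene oxidation in mouse airway cells, was at 98.0, 62.1, 88.8 and 45.2 CPM in RYGB, against 4.3, 5.0, 3.5, 4.3 and 5.2 CPM in sham WAT (log2 fold change 3.72 ± 0.22, adjusted p 1.29e-05). Cyp2e1 was at 3095.6, 16435.6, 3247.0 and 2722.0 CPM in RYGB, against 273.2, 686.8, 354.9, 347.1 and 1524.3 CPM in sham WAT (log2 fold change 3.17 ± 0.61, adjusted p 0.0027). Cyp2b10 was at 5.0, 116.1, 6.3 and 5.8 CPM in RYGB, against 0.1, 0.5, 0.4, 0.4 and 0.4 CPM in sham WAT (log2 fold change 3.34 ± 0.75, adjusted p 0.0057). All RYGB values of these 3 genes were above all sham values, and RYGB 2 was far above the rest for Cyp2e1 and Cyp2b10. Without RYGB 2 the log2 fold changes of Cyp2e1 and Cyp2b10 were 2.55 and 2.30, and both passed. Cyp2r1 and Cyp2j6 rose by 0.84 and 0.34 on the log2 scale (adjusted p 0.0048 and 0.042). Cyp2r1 averaged only 1.675 ± 0.443 CPM in RYGB and 0.48 ± 0.084 CPM in sham WAT, near the listing limit of 1 CPM. Cyp2j6 averaged 47.55 ± 5.88 and 37.22 ± 1.31 CPM. The call of Cyp2j6 was lost in 8 of 14 alternatives (adjusted p up to 0.145). Cyp2r1 and Cyp2b10 were listed through the RYGB libraries alone, and either group alone would have listed 8 of the 12 members, of which 3 rose and 4 fell.

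**Figure D5:**
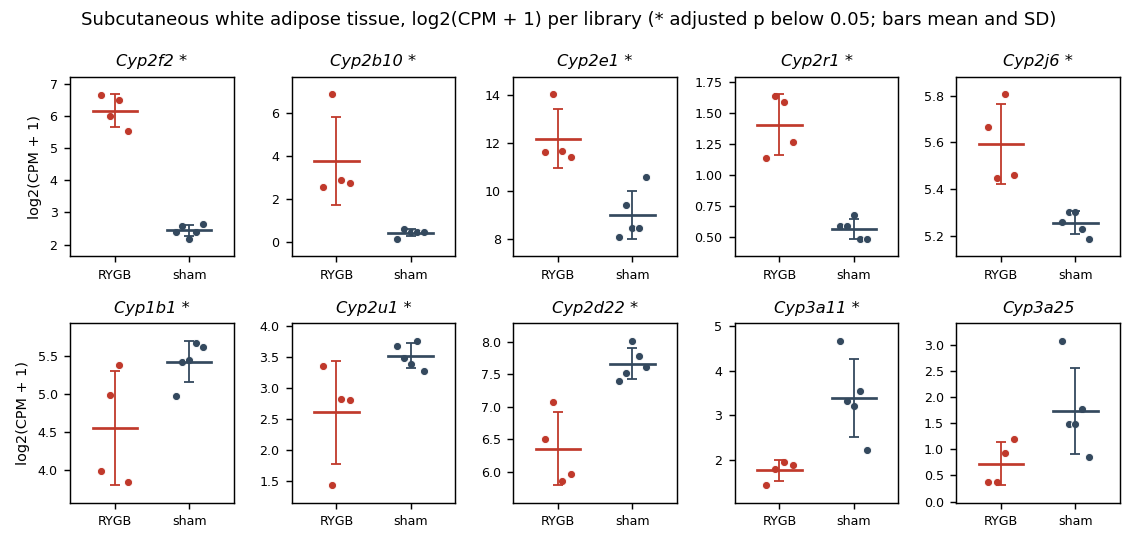
Log2(CPM + 1) in each WAT library, RYGB (4 mice, red) left of sham (5 mice, dark), with mean and SD, for the 9 P450 genes that passed (asterisks, ordered from the most raised to the most lowered) and Cyp3a25. In the top row every RYGB point is above every sham point, and Cyp2b10 and Cyp2e1 each have a single high RYGB point (116.1 and 16435.6 CPM). Cyp3a25, which did not pass, was listed through the sham libraries alone.

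Of the 4 genes lower in RYGB WAT, Cyp2d22 and Cyp3a11 separated the groups. Cyp2d22 was at 89.8, 134.2, 56.7 and 61.7 CPM in RYGB, against 167.3, 181.6, 257.2, 219.0 and 195.1 CPM in sham WAT (log2 fold change -1.31 ± 0.24, adjusted p 0.0022). Cyp3a11 was at 1.7, 2.5, 2.9 and 2.7 CPM in RYGB, against 24.4, 9.0, 8.2, 10.7 and 3.7 CPM in sham WAT (log2 fold change -1.62 ± 0.39, adjusted p 0.0082). Cyp1b1 averaged 24.9 ± 13.1 CPM in RYGB and 42.6 ± 7.54 CPM in sham WAT and Cyp2u1 5.75 ± 3.08 and 10.5 ± 1.605 CPM (adjusted p 0.041 and 0.048). These last 2 overlapped and no longer passed under median-of-ratios scaling, which left 2 members lower, as did leaving out sham 2, sham 3 or sham 4. Over all 12690 genes calls were 5153 as reported and 5274 under the scaling. They were 4229, 4043 and 3936 without sham 2, sham 3 and sham 4.

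Adipocyte markers summed to 47804 to 95068 CPM in RYGB and 30472 to 44217 CPM in sham WAT, with Cfd, Retn and Car3 higher and Lep lower among 10. Fibroblast markers summed to 1654 to 5972 CPM in RYGB and 3494 to 4814 CPM in sham WAT, and 4 of 10 fell. Smooth muscle and pericyte markers summed to 369.1 to 876.9 CPM in RYGB and 901.8 to 1872.9 CPM in sham WAT, with 4 of 7 lower and 1 higher. Hepatocyte markers, 3 of 9 of them lower and 0 higher, summed to 63.4 to 134.5 CPM in RYGB and 75.3 to 357.8 CPM in sham WAT. The rank correlation of level with exon length was between -0.39 and 0.07 in RYGB and between 0.27 and 0.40 in sham WAT, and with that trend removed 5 members were higher and 3 lower. Over all 12690 genes 4833 then passed in either direction, against 5153 before. The part of the cell markers in these changes was not tested. Among pathway genes, Arnt, the partner of AHR, fell together with the AHR targets Tiparp and Nqo1 (log2 fold changes -0.69, -1.28 and -0.84). In all, 5 genes of heme synthesis and breakdown rose, among them Alad (log2 fold change 1.61), and 2 fell among 12. Of 20 other phase I enzymes 4 rose and 8 fell, led by Aldh1a1 and Fmo2 (log2 fold changes -2.77 and -2.47), and 5 of 8 drug transporters fell, including Abcb1a and Abcg2.

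In muscle 0 of 8 P450 genes passed, as did 0% of 11594 genes, and at an unadjusted p below 0.05, 2 members were higher and 0 lower (4.02 and 2.98% of all genes). Cyp2e1 was at 31.3, 20, 48.9 and 3.5 CPM in RYGB, against 3.8, 4.4, 4.1 and 9.8 CPM in sham muscle, with RYGB 4 inside the sham range (log2 fold change 1.68 ± 0.65, adjusted p 0.66). Cyp1a1 was at 1.6, 0.8, 4.0 and 1.8 CPM in RYGB and 0.5, 1.0, 0.3 and 1.0 CPM in sham muscle (log2 fold change 0.77 ± 0.30, adjusted p 0.66). The remaining 6 had log2 fold changes between -0.22 and 0.21.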

How the data were processed

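Per the labels, RNA of scraped gut villi, liver, WAT and muscle was extracted with an RNeasy kit and made into libraries with PrepX; per the submitters' processing notes, HTSeq and the build GRCm38 were used, with no version given. For the aligner and the strand setting the sources used here say nothing, so overlapping genes cannot be told apart. The deposited values were CPM rounded to 1 decimal, in 6 tables that the authors restricted to expressed genes. Repeated identical lines (339 in ileum, 374 in WAT) and blank lines were dropped. Groups came from the labels. Nothing in the labels gives read totals, and CPM at this rounding does not recover whole reads, so no count model was run.

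Each tissue was fitted over all its genes with limma 3.58.1 in R 4.3.3 (eBayes with trend and robust both on), modelling log2(CPM + 1) by surgery alone, adjusted by Benjamini-Hochberg with a threshold of 0.05. Fold changes are on that scale and understate those of low genes. Differences between tissues used genes in both tables with mouse as a block. Alternatives were median-of-ratios scaling, a pseudocount of 0.1, a mean of at least 5 CPM, leaving out each library, a block for replicate number, duodenum without libraries above 1% pancreatic transcripts, and, chosen after seeing the data, removal of the trend with exon length. The steps were tested on simulated data. Members and lists were chosen with earlier results of these data known; the text names every member past a threshold, the leading members per tissue and subfamily, and list genes that passed. Shared sequence was counted as identical words of 50 bases in GENCODE M21 transcripts, promoters (36 of 42 members matched) came from RefSeq on GRCm38.p6, and tables were handled in Python 3.11.15 with pandas 2.3.3. Median-of-ratios scaling moved the all-gene median of log2 fold changes (CPM minus scaled) by 0.16 in duodenum and -0.10 in ileum. Tissues share mice, and p-values measure the spread between single mice.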

Additional observations from a re-analysis of the deposited data

Results flagged for a closer look

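The check covered 50 groups of P450 values, those of members past the test in a tissue. Of these, 5 held a library far from the others. Members that did not pass were not checked. The limit used flags about 1 in 20 groups of independent normal values, which CPM values picked by a test need not be. In jejunum, sham 3 had 903.5 CPM of Cyp2b10 with the next sham library at 636.3 CPM, and RYGB 4 had 11.9 CPM of Cyp2j9 with the next at 2.0 CPM. In WAT, RYGB 2 had 116.1 CPM of Cyp2b10 and 16435.6 CPM of Cyp2e1, with the next RYGB libraries at 6.3 and 3247.0 CPM. Sham 1 had 0.1 CPM of Cyp2b10, below 0.4 CPM in the next, both near 0 in values rounded to 1 decimal.

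The RYGB effect differed between jejunum and duodenum in the test of the difference itself for Cyp2j6 (-2.30), Cyp2j9 (-2.62), Cyp3a25 (-2.0), Cyp2c38 (-2.15), Cyp2b10 (-3.11) and Cyp2c68 (-1.30), all on the log2 scale. Between jejunum and liver it differed for Cyp2j6 (-2.81). Shared mice and sham libraries link these values to the comparisons within each tissue.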

How the results depend on the processing

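No direction of a called member reversed under any alternative run. Of the members called, 5 of 14 in jejunum, 6 of 9 in WAT, 0 of 2 in liver, 2 of 6 in the jejunum and duodenum contrast and 0 of 1 in the jejunum and liver contrast passed under every alternative. Leaving out a replicate gave 8 to 14 lower members in jejunum, 0 to 3 lower in duodenum, 0 to 1 lower in ileum, 0 to 5 higher and 0 to 4 lower in liver, 4 to 5 higher and 2 to 4 lower in WAT, 2 to 6 in the duodenum contrast and 0 to 5 in the liver contrast. Over all genes, calls then numbered 484 to 2258 in jejunum (1390 as reported) and 1 to 982 in duodenum (38 as reported). They numbered 0 to 46 in ileum (0 as reported), 3 to 2253 in liver (476) and 3936 to 6151 in WAT (5153). Median-of-ratios scaling gave 1 lower in duodenum, 3 higher and 3 lower in liver and 2 lower in WAT. The pseudocount of 0.1 gave 1 lower in duodenum, Cyp2d10. Removing the exon-length trend gave 1 lower in duodenum and 2 higher and 4 lower in liver. Over all genes the calls were 50 in duodenum, 992 in liver and 5274 in WAT under the scaling. They were 39 in duodenum with the pseudocount of 0.1, and 34 in duodenum and 842 in liver without the trend. The cause was not tested. Replicate numbers mark different mice, and the correlation of same-numbered deviations ranged from -0.41 to 0.61. It was -0.37, 0.37, 0.11 and 0.61 in duodenum and -0.26 and 0.39 in ileum. Whether same-numbered libraries share a processing step was not tested. With the replicate block there were 5 lower in jejunum, 1 lower in duodenum, 1 higher and 1 lower in ileum and 0 higher and 0 lower in liver. Over all genes that block moved the calls from 38 to 441 in duodenum and from 0 to 597 in ileum. In jejunum they went from 1390 to 474 and in liver from 476 to 7. The lack of read totals limits the genes near 1 CPM, and 2 RYGB libraries limit the ileum.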

Other observations

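The mouse behind jejunum RYGB 2, liver RYGB 2, WAT RYGB 2, muscle RYGB 2, duodenum RYGB 1 and ileum RYGB 1 was picked out after its values were seen, and nothing was tested. It had the lowest RYGB value for 13 of 24 members in duodenum, 14 of 23 in jejunum, 11 of 20 in ileum, 16 of 38 in liver, 3 of 12 in WAT and 3 of 8 in muscle. Over all genes its library was the lowest for 13.8% in duodenum, 45.6% in jejunum, 29.3% in ileum, 16.6% in liver, 40.7% in WAT and 30.3% in muscle, where 4, 4, 2, 5, 4 and 4 RYGB libraries were compared. Its Cyp3a11 was at 899.7 CPM in duodenum, 223.5 CPM in jejunum and 104.1 CPM in liver, the lowest RYGB value in each. Its Cyp2b10 was at 68.6 CPM in duodenum, 7.2 CPM in jejunum and 11.8 CPM in ileum, again the lowest, while in WAT it was the highest at 116.1 CPM and in liver, at 5.1 CPM, it was below RYGB 4 at 7.0 CPM and above the rest.

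Cyp2b10, the marker gene of CAR, passed the test in 3 tissues, lower after RYGB in jejunum and higher in WAT and liver; in WAT and liver it was listed through the RYGB libraries alone. Cyp2e1 leaned higher after RYGB in WAT, liver and muscle, with log2 fold changes of 3.17, 1.46 and 1.68, of which only that in WAT passed. In jejunum, the remaining tissue that lists it, the value was -0.49.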
